A study of Mus musculus with 2 samples.

Results

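Transcripts of 40 cell cycle genes, out of 55450 genes in the deposited matrices, were followed through the immune lineages of B16F10 mouse melanomas. The members were taken by name for their known roles in the cycle. They were 16 genes of DNA synthesis (S members) and 20 genes of G2 and mitosis (G2/M members). The other 4, Stmn1, Tubb5, Tuba1b and Hmgb2, were placed in neither group and are called broad members. Dividing cells carry these in larger amounts. Stmn1 proved far less broadly expressed here than the other broad members, as given below. A cell was called cycling when it held at least 3 UMIs (unique molecular identifiers, each standing for 1 captured transcript) of the G2/M members Mki67, Top2a and Birc5 together. Cells were clustered without cell cycle genes and genes that correlated with them, so that a cycling cell stayed with the resting cells of its own lineage.

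The tumours were grown under the skin for 10 days, and CD45+ cells, the pan-leukocyte fraction, were sorted from them for droplet sequencing of transcript 3' ends. The KO library came from Lyz2-Cre-Kcnj2f/f mice and the WT library from Kcnj2f/f mice, so both genotypes carried the floxed Kcnj2 allele and the libraries differed by the Cre transgene. Kcnj2 encodes the inward rectifier potassium channel Kir2.1, and the series asks how it affects the tumour microenvironment. Lyz2-Cre acts in macrophages, monocytes and neutrophils, so T, NK and B cells of KO mice carry the channel gene intact by design. Each genotype had 1 library, made from the pooled tumours of 3 mice. No difference below therefore has a replicate check, no test was possible, and each interval (95%) covers counting error only.

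Genes of the division cycle are switched on in waves. At the G1/S border E2F factors release the genes of the replication machinery: the Mcm helicase, the sliding clamp Pcna, and the enzymes that make and guard nucleotides. Later, B-Myb and FoxM1 act through the cell cycle homology region (CHR) and CCAAT boxes on the mitotic genes, among them the cyclins A2 and B, the kinases of the spindle and the proteins of the kinetochore. In tumours such transcripts mark expanding effector T cells, and among dendritic cells they mark cDC1 and cDC2 cells that still divide after reaching the tissue, while mature migratory dendritic cells, monocytes and neutrophils divide little.

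The promoters of 4 members are shown because they hold the motifs through which the S and the G2/M waves are known to be switched on. They run from 250 bases before to 50 bases after the RefSeq gene start (GRCm38.p6), 5' to 3' on the gene's own strand. They belong to the 2 S members and the 2 G2/M members with most UMIs among those that hold their group's motif. Capitals mark E2F motifs (TTTCCCGC, TTTGGCGC, TTTCGCGC or TTTGCCGC, on either strand) in Mcm3 and Mcm6, where a pair of matches overlaps in Mcm6, and CHR motifs (TTTGAA or TTCGAA) and CCAAT motifs, each on either strand, in Cenpa and Mki67.
Mcm3 (chr1:20820263-20820562, minus strand): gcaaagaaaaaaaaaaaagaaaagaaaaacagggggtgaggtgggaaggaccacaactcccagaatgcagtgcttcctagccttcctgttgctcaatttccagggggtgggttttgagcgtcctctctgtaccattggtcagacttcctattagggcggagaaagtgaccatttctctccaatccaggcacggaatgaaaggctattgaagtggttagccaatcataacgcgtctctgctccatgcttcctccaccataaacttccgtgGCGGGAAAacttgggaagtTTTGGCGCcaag
Mcm6 (chr1:128359656-128359955, minus strand): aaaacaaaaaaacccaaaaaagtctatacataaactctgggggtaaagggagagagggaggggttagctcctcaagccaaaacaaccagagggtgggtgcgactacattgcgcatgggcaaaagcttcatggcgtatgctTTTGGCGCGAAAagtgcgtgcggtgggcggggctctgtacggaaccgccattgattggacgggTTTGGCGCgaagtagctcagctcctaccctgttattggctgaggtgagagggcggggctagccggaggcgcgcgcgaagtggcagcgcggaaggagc
Cenpa (chr5:30666636-30666935, plus strand): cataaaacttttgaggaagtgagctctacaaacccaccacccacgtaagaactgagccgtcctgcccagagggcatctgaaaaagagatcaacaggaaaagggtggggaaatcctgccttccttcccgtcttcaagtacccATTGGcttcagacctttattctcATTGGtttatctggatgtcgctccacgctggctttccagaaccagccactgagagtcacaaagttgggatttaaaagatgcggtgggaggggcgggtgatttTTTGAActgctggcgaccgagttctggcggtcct
Mki67 (chr7:135716330-135716629, minus strand): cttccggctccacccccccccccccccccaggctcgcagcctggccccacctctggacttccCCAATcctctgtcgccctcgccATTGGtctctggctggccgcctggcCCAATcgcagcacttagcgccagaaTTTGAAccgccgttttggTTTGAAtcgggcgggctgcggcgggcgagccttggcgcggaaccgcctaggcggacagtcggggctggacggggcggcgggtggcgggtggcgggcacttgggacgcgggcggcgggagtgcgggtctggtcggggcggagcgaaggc

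RefSeq promoters were matched for 33 of the 40 members, in 35 windows because Mcm7 and Uhrf1 have an alternative start. An E2F motif stood in 6 of 15 S promoters (40%) and in 1 of 17 G2/M promoters (5.88%), that of Cdk1. Among all 32851 promoters of that length, 744 (2.26%) held one. A CHR motif stood in 13 of 17 G2/M promoters (76.5%) and in 2 of 15 S promoters (13.3%), against 19.2% of all promoters. All 13 G2/M promoters with a CHR also held a CCAAT motif, a pair found in 7.52% of all promoters. Median GC content was 57.7% in S promoters and 58.0% in G2/M promoters, against 52.7% over all promoters. A match of letters is a description and not a binding site.

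The KO library held 57047535 UMIs in 6356 barcodes and the WT library 55219440 UMIs in 9677 barcodes, set against 6000 to 8000 cells aimed at in the labels. Filters on mitochondrial share and gene number left 5688 KO and 8936 WT cells, with median depths of 8026 UMIs in KO and 4398.5 UMIs in WT cells. Depth thus differed between the libraries, so shares of cells are also given after each cell was thinned to 2000 UMIs. The libraries shared 61 barcodes, of which 13 were cycling in KO and 9 in WT, and without them each log2 ratio of a cycling share or summed level stayed on its side of 0, apart from the cDC2-like share, which was near 0 either way. Of 26 clusters, 5 got no name, with 287 KO (5.05%) and 1372 WT cells (15.4%). Of these, 3 clusters with 80 KO and 480 WT cells stayed unnamed for a high mean doublet score. Despite the CD45+ sort, 89 KO and 121 WT cells formed a cluster led by Dct, Pmel and Tyrp1, genes of melanin synthesis, and these melanoma-like cells were kept out of the immune totals of 5599 KO and 8815 WT cells.

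The labels were checked on the targeted gene. Kcnj2 stood at 9.34 CPM (UMIs of a gene per 1000000 UMIs of the lineage) in KO macrophage-like cells, against 24.2 CPM in WT macrophage-like cells, from 83 and 110 UMIs. The log2 ratio of KO over WT was -1.37 (-1.80 to -0.95). In monocyte-like cells it was at 3.1 CPM in KO, against 8.62 CPM in WT, from 12 and 18 UMIs, and in CD8 T cell-like cells each library held 1 UMI. The sources used here do not name the deleted exon, and tags at the transcript's 3' end may lie outside it. Lyz2 itself, whose locus carries the Cre, was at 1451 CPM in KO, against 7700 CPM in WT macrophage-like cells.

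Members were concentrated in cycling cells to a degree that differed among them. In KO immune cells, transcripts of Ccna2, the cyclin that spans S and G2, lay to 95.2% in cycling cells, which are 6.32% of all cells. For Rrm2, the regulated subunit of ribonucleotide reductase, that part was 90.4% in KO and 85.7% in WT cells. Pcna, which also serves DNA repair, was detected in 69.2% of cycling and 37.3% of non-cycling KO cells, and 32.2% of its UMIs were in cycling cells. Cenpa, the histone variant of the centromere, was detected in 64.4% of cycling and 34.5% of non-cycling KO cells, with only 19.6% of its UMIs in cycling cells. The broad members Tubb5, Hmgb2 and Tuba1b were seen in 65.6%, 66.8% and 55.3% of non-cycling KO cells. Stmn1 was seen in only 7.84% of them, and 81.4% of its KO UMIs were in cycling cells. Since Mki67, Top2a and Birc5 made the call, their own contrast is no finding.

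CD8 T cell-like, cDC1-like and regulatory T cell-like (Treg-like) cells were the most cycling of the named immune lineages. Among CD8 T cell-like cells 17.6% were cycling in KO (68 of 387 cells; 13.9 to 21.7%) and 12.6% in WT (207 of 1640; 11.1 to 14.3%), a log2 ratio of 0.48 (0.06 to 0.88). Among cDC1-like cells, which cross-present antigen to CD8 T cells, 16.9% were cycling in KO (62 of 367; 13.2 to 21.1%) and 17.5% in WT (37 of 212; 12.6 to 23.2%). Among Treg-like cells 15.7% were cycling in KO (19 of 121; 9.73 to 23.4%) and 14.3% in WT (12 of 84; 7.61 to 23.6%). A further cluster with Foxp3 among its leading genes stayed unnamed and is left out of these shares, as given below. The CD8 T cell-like, cDC1-like and Treg-like intervals overlapped each other within either library, and the order of these 3 lineages was not tested. In both libraries their shares lay above that of every other named immune lineage, but with intervals that were not always apart. The Treg-like interval in WT overlapped those of cDC2-like and CD4 T cell-like cells, given below. In KO the intervals of small lineages such as gamma-delta T cell-like cells (2.14 to 18.5%) reached theirs.

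A middle group followed. In cDC2-like cells 7.63% were cycling in KO (77 of 1009; 6.07 to 9.45%) and 7.72% in WT (48 of 622; 5.74 to 10.1%). In CD4 T cell-like cells the share was 4.17% in KO (14 of 336; 2.30 to 6.89%), against 7.73% in WT (50 of 647; 5.79 to 10.1%), a log2 ratio of -0.89 (-1.86 to -0.01). NK cell-like cells had 3.16% in KO (10 of 316) and 4.75% in WT (17 of 358), with a log2 ratio of -0.59 (-1.87 to 0.62) whose interval spans 0. Macrophage-like cells, in which the Cre acts, had 3.78% in KO (39 of 1033; 2.70 to 5.13%) and 3.52% in WT (25 of 710; 2.29 to 5.15%), a log2 ratio of 0.10 (-0.66 to 0.89). Migratory DC-like cells had 4.21% in KO (28 of 665; 2.82 to 6.03%) and 5.15% in WT (23 of 447; 3.29 to 7.62%).

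The lowest shares were in monocyte-like cells, with 0.480% in KO (2 of 417) and 0.397% in WT (1 of 252), and in B cell-like cells, with 0.254% in KO (1 of 393) and 0.603% in WT (11 of 1825). Plasmacytoid DC-like cells had 3 of 155 cycling cells in KO and 4 of 298 in WT, and neutrophil-like cells 1 of 24 in KO and 3 of 147 in WT. Of these, 66.7% to 100% were among the 6% of cells with the highest doublet score, a simulation-based measure of droplets that hold a pair of cells. Gamma-delta T cell-like cells had 4 of 52 in KO and 0 of 71 in WT, a count of 0 that allows up to 4.23% (3 counts of the 71). T cells of the cluster led by Lef1 and Tcf7 had 0 of 37 in KO and 0 of 130 in WT.

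Depth and free RNA bear on how these shares can be read. The migratory DC-like share, set beside the others as that of a mature lineage, was measured at median depths of 10666 UMIs in KO and 7651.5 UMIs in WT non-cycling cells. The macrophage-like share was at or under it in both libraries, at 8617 UMIs in KO and 5742 UMIs in WT, and so was the NK cell-like share, as was that of CD4 T cell-like cells in KO. That order turned after thinning to 2000 UMIs, where migratory DC-like cells had 0.651% in KO and 1.06% in WT, NK cell-like cells 1.78% in KO (5 of 281) and 2.47% in WT (7 of 283), and each of these lineages lay above the migratory DC-like share in the libraries named. Migratory DC-like cycling cells carried the summed transcripts of 7 T cell markers at 380 CPM in KO, against 793 CPM in WT, and the non-cycling cells at 85.8 CPM in KO, against 402 CPM in WT. Of them 25% in KO and 13% in WT were among the highest doublet scores. Their part in the share was not tested. Monocyte-like cells, at 9097 UMIs in KO and 7839 UMIs in WT, showed almost no cycling cells.

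Thinning to 2000 UMIs per cell also left out the shallower cells, 518 in KO and 2162 in WT, of which 60 in KO and 738 in WT were B cell-like. The thinned CD8 T cell-like share was 7.47% in KO (28 of 375; 5.02 to 10.6%) and 6.30% in WT (99 of 1572; 5.15 to 7.61%), with 12 KO and 68 WT cells left out and a log2 ratio of 0.25 (-0.41 to 0.86). The cDC1-like share was 5.49% in KO and 6.28% in WT, and the cDC2-like share 1.32% in KO and 1.47% in WT. Macrophage-like cells then had 1.02% in KO (9 of 883) and 1.17% in WT (6 of 513), and the migratory DC-like shares above came from 4 of 614 cells in KO and 4 of 378 in WT. CD4 T cell-like cells had 1.85% in KO (6 of 325) and 3.40% in WT (20 of 589). Over all immune cells the unthinned share was 6.32% in KO (354 of 5599) and 6.42% in WT (566 of 8815), a log2 ratio of -0.02 (-0.22 to 0.17). Thinned, it was 2.15% in KO and 3.22% in WT, a log2 ratio of -0.58 (-0.93 to -0.25). Among the same cells with all their UMIs, 348 of 5081 were cycling in KO and 528 of 6653 in WT, a log2 ratio of -0.21 (-0.41 to -0.01). Called by 5 S members (Gins2, Hells, Rrm2, Tyms and Uhrf1) and thinned, the share was 1.10% in KO and 0.977% in WT, a log2 ratio of 0.17 (-0.37 to 0.71).

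**Figure D1:**
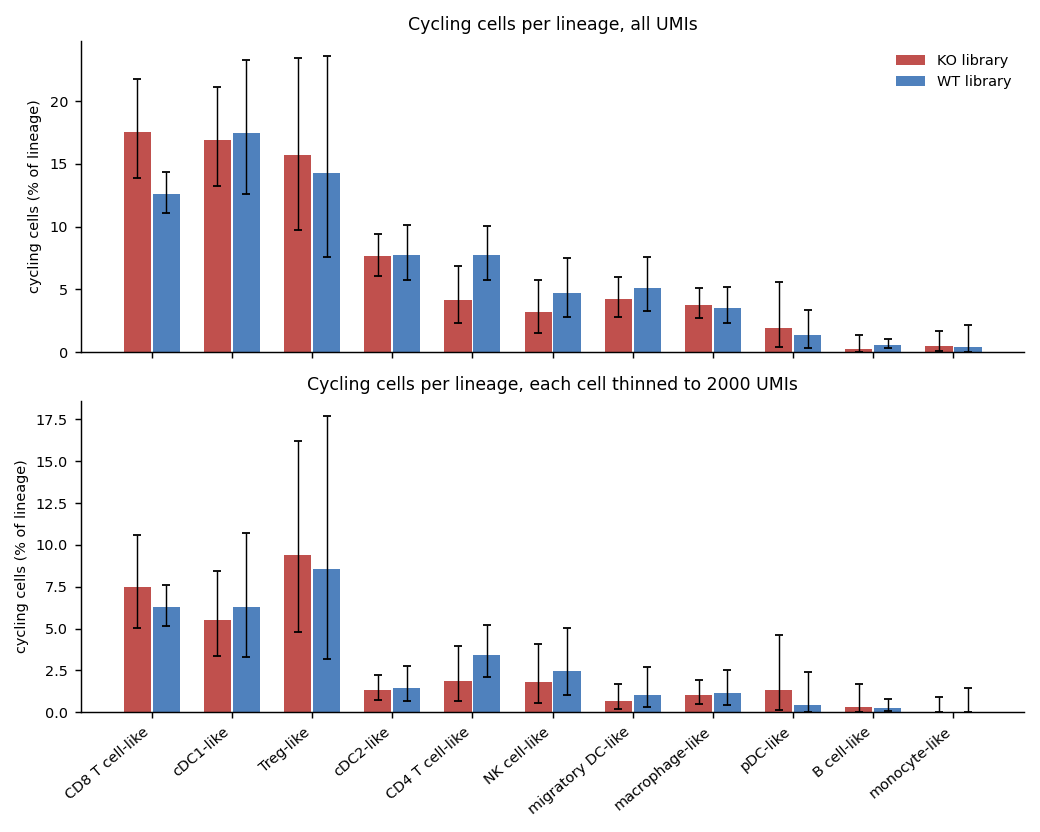
Share of cycling cells (% of the lineage) in the KO library (red) and the WT library (blue), with all UMIs above and after thinning each cell to 2000 UMIs below; error bars are exact 95% binomial intervals over cells. CD8 T cell-like, cDC1-like and Treg-like cells stand highest in both panels, and the KO and WT intervals overlap in each lineage shown.

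The cycling cells of the libraries came from the lineages in different proportions. In KO, 47.2% of cycling immune cells were conventional dendritic cells of the cDC1-like, cDC2-like and migratory types (167 cells), while in WT these gave 19.1% (108 cells). T cells gave 29.7% in KO (105 cells) and 47.5% in WT (269 cells). The same lineages made up, among all immune cells, 36.5% (dendritic) and 16.7% (T) in KO, against 14.5% and 29.2% in WT. Cells without a lineage name gave 7.34% of cycling cells in KO and 22.6% in WT.

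CD8 T cell-like cells held the highest level of most members among the larger lineages. Treg-like cells were not ranked, having fewer than 200 cells in each library. Their 40 members summed to 6133 CPM in KO and 4360 CPM in WT, above the 5198 CPM and 3722 CPM of CD8 T cell-like cells. Among the 9 lineages with at least 200 cells in each library, 39 of 40 members had their highest CPM in CD8 T cell-like cells in KO, the exception being Tubb5, a beta-tubulin, in migratory DC-like cells. In WT, 27 members were highest in CD8 T cell-like cells (8 S, 17 G2/M and 2 broad), and 10 in cDC1-like cells, of which 8 were S members. The map of levels by lineage shows the same bright CD8 T cell-like and cDC1-like columns and the dark B cell-like and monocyte-like columns. Pcna and Cenpa stayed visible in those as well: in monocyte-like cells Pcna was at 77.3 CPM in KO, against 64.7 CPM in WT, and Cenpa at 96.5 CPM in KO, against 80.5 CPM in WT.

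**Figure D2:**
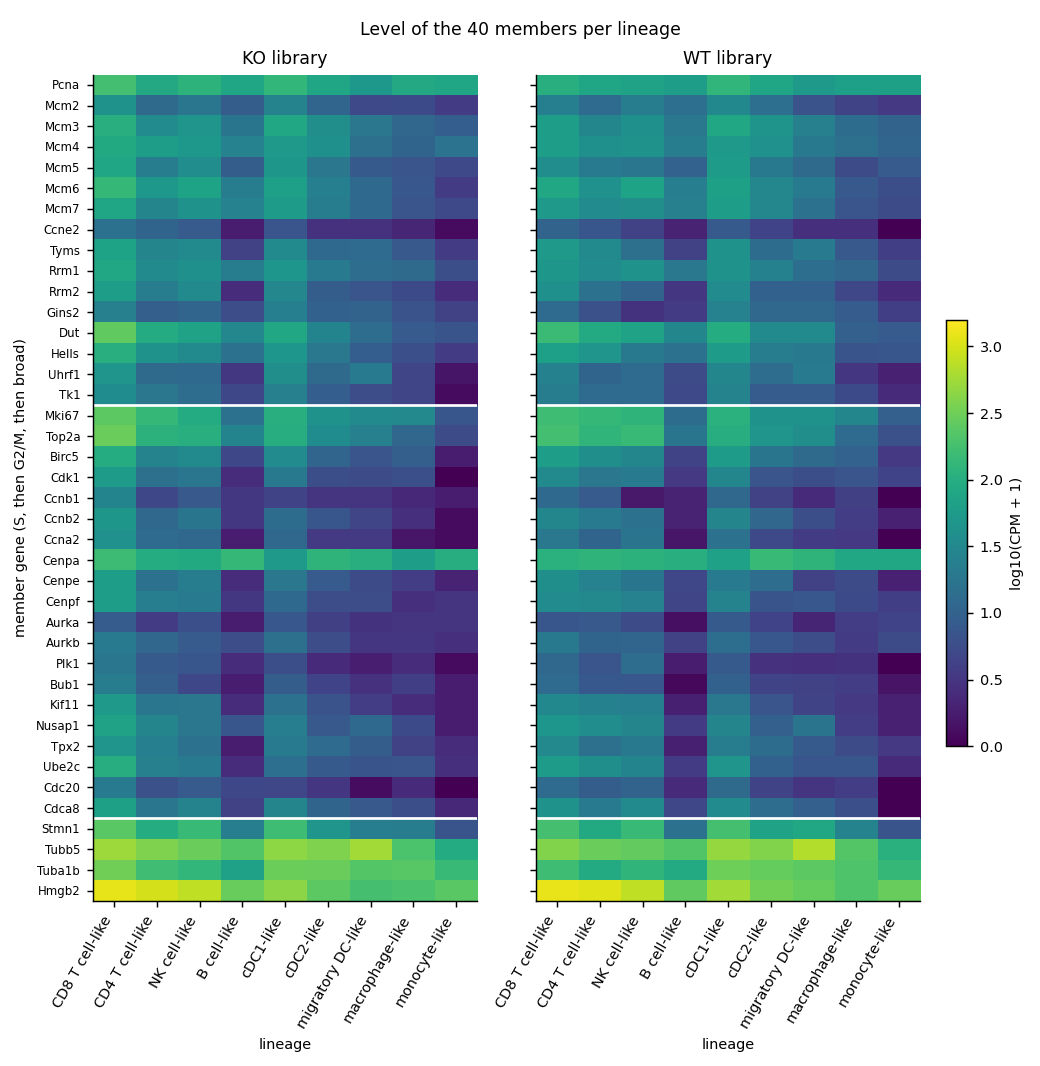
Level of each of the 40 members (rows; S, then G2/M, then broad, split by white lines) in 9 lineages (columns), as log10 of CPM plus 1, for the KO library on the left and the WT library on the right. CD8 T cell-like cells are brightest for 39 members in KO and 27 in WT. B cell-like and monocyte-like cells are dark for most members other than Pcna, Cenpa, Tubb5, Tuba1b and Hmgb2.

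In CD8 T cell-like cells nearly all members were higher in KO. A member was counted as past the fold when its log2 ratio reached 0.5 in either direction, among genes with at least 20 UMIs over both libraries; this is a size and not a test. Past the fold were 33 of 40 members on the higher side (15 of 16 S, 17 of 20 G2/M and Tuba1b), beside 16.2% of all 11708 genes so measured, and 0 on the lower side, beside 11% of all genes. The median log2 ratio of the members was 0.70, beside 0.03 over all genes. Further genes gave the same direction at a lower rate: 10 of 23 further S genes and 14 of 27 further G2/M genes were higher past the fold, and 0 of either were lower, with median log2 ratios of 0.46 and 0.51. A log2 ratio of 1 was passed by 4 members (Ccna2, Ccnb1, Mcm5 and Tuba1b), beside 4.47% of all genes.

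Among the S members, the 6 Mcm genes, subunits of the replicative helicase, ranged in log2 ratio from 0.53 (Mcm7) to 1.06 (Mcm5). Mcm5 was at 74.7 CPM in KO (65.3 to 85.1), against 35.7 CPM in WT (32.1 to 39.7), with a log2 ratio of 1.06 (0.82 to 1.31). Gins2, part of the complex that turns the helicase on, was at 23.9 CPM in KO, against 12.1 CPM in WT. The clamp Pcna was at 174 CPM in KO, against 99.0 CPM in WT, a log2 ratio of 0.81. The nucleotide enzymes followed: Dut, which removes dUTP, at 262 CPM in KO, against 149 CPM in WT, Rrm1 at 80.0 and 49.1 CPM, Rrm2 at 59.8 and 38.9 CPM, and thymidine kinase Tk1 at 35.2 and 21.4 CPM. Tyms, thymidylate synthase, missed the fold at 0.48. Uhrf1 and Hells, which maintain DNA methylation behind the fork, had log2 ratios of 0.90 and 0.69, and Ccne2, cyclin E2, 0.62 (0.07 to 1.15).

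Among the G2/M members, Ccnb1 and Ccna2 had the widest ratios. Ccnb1, the cyclin B1 that drives mitotic entry, was at 26.9 CPM in KO (21.4 to 33.4), against 11.3 CPM in WT (9.34 to 13.6), a log2 ratio of 1.25 (0.81 to 1.67). Ccna2 was at 40.2 CPM in KO, against 18.3 CPM in WT, a log2 ratio of 1.13 (0.79 to 1.47). Their kinase Cdk1 was at 55.8 CPM in KO, against 32.2 CPM in WT, and Ccnb2 at 48.8 CPM in KO, against 28.4 CPM in WT. The kinetochore and spindle members Cenpe, Cenpf, Kif11, Bub1, Nusap1 and Tpx2 had log2 ratios of 0.55 to 0.84. Ube2c and Cdc20, with which the anaphase-promoting complex marks cyclins for destruction, had 0.81 and 0.70. The kinase Plk1 had 0.69, Cdca8 of the chromosomal passenger complex 0.60, and Cenpa missed the fold at 0.48. The Aurora kinases stood apart: Aurka was at 7.64 CPM in KO, against 6.28 CPM in WT (0.28; -0.48 to 0.99) and Aurkb at 20.2 CPM in KO, against 18.4 CPM in WT (0.14; -0.31 to 0.56). Mki67, at 248 CPM in KO, against 158 CPM in WT, and Top2a, the topoisomerase that untangles sister chromatids, at 291 CPM in KO, against 172 CPM in WT, also entered the cycling call.

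The broad members were less uniform. Tuba1b, an alpha-tubulin, was at 323 CPM in KO, against 162 CPM in WT, a log2 ratio of 1.0. Tubb5 was at 537 CPM in KO, against 394 CPM in WT, and Stmn1, which destabilizes microtubules, at 242 CPM in KO, against 182 CPM in WT, both short of the fold. Hmgb2, a chromatin protein, was level, at 1218 CPM in KO, against 1227 CPM in WT.

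A cluster led by Ccl1, Rgs16 and Nrgn, with Xcl1, Gzmf, Gzmc, Pdcd1 and Ifng among its leading genes, held most of the cycling CD8 T cell-like cells in KO. In it 52.9% of cells were cycling in KO (45 of 85; 41.8 to 63.9%) and 52.8% in WT (65 of 123; 43.6 to 61.9%), a log2 ratio of 0.00 (-0.58 to 0.57). It held 22% of the CD8 T cell-like cells in KO and 7.50% in WT, and 66.2% of the cycling ones in KO and 31.4% in WT. Its median depth was 12169 UMIs in KO and 3785 UMIs in WT, and thinned to 2000 UMIs its cycling share was 26.9% in KO (21 of 78) and 39.2% in WT (38 of 97). The large cluster led by Cd8b1, Gzmk and Ccl5 had 8.24% cycling cells in KO (22 of 267; 5.24 to 12.2%) and 9.63% in WT (137 of 1423; 8.14 to 11.3%). The cluster led by the interferon-induced Ifit3 had 1 of 35 in KO and 5 of 94 in WT.

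Without the Ccl1-led cluster, 7.62% of CD8 T cell-like cells were cycling in KO (23 of 302) and 9.36% in WT (142 of 1517), a log2 ratio of -0.30 (-1.0 to 0.34). Of the members, 0 were then higher past the fold, beside 11.6% of all genes, and 5 were lower (Aurka, Aurkb, Bub1, Mcm2 and Mcm3), beside 11% of all genes. The median ratio of the members was -0.15. A coarser clustering of all cells (Leiden resolution of 0.5 in place of 1) also gave a log2 ratio of -0.30 for the cycling share.

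Within the cycling CD8 T cell-like cells, members differed little between the libraries: 3 were higher past the fold (Ccnb1, Mcm2 and Mcm5), beside 15.7% of all genes, and 1 lower (Aurkb), beside 18.1% of all genes. Their median log2 ratio was 0.00. With cycling cells left out, 10 of 36 members were higher, beside 13.2% of all genes, and 6 lower, beside 10.2% of all genes. Among cycling cells Ccnb1 was at 70.5 CPM in KO, against 45.9 CPM in WT, a log2 ratio of 0.62 (0.16 to 1.08), and Aurkb at 52.2 CPM in KO, against 77.8 CPM in WT, a log2 ratio of -0.57 (-1.04 to -0.13). Mki67 was at 649 CPM in KO, against 714 CPM in WT, and Top2a at 752 CPM in KO, against 737 CPM in WT. Cycling cells held 36.2% of all UMIs of the lineage in KO and 19.4% in WT, and 84.1% of its S and G2/M member UMIs in KO and 71.6% in WT. With every cell weighted alike, the mean summed level of the 40 members was 3086 CPM in KO and 2973 CPM in WT, a log2 ratio of 0.05, while the UMIs pooled over the lineage gave 5198 CPM in KO and 3722 CPM in WT, a log2 ratio of 0.48 (0.45 to 0.51).

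**Figure D3:**
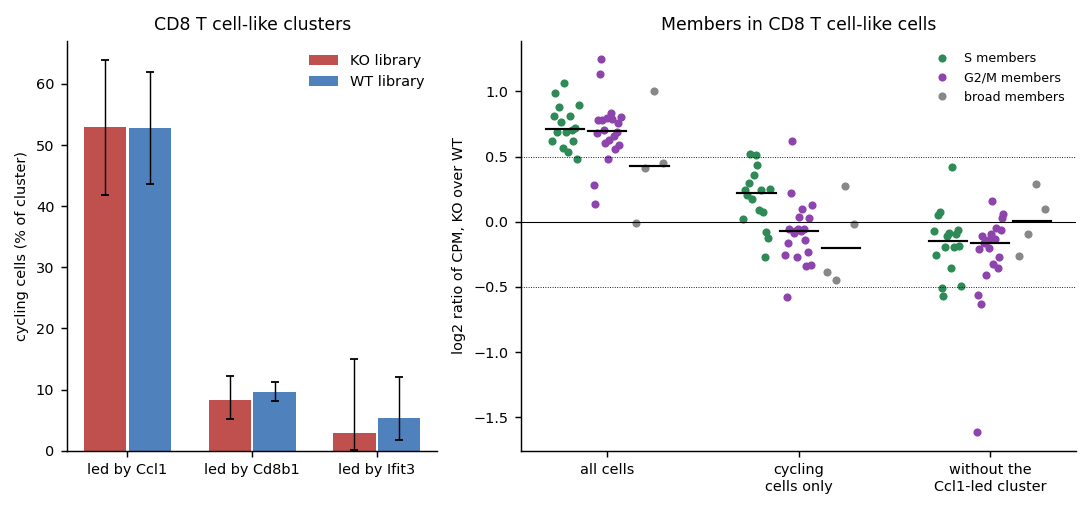
Left: share of cycling cells (%) in the 3 CD8 T cell-like clusters, KO in red and WT in blue, with exact 95% binomial intervals. Right: log2 ratio of CPM, KO over WT, of each S (green), G2/M (purple) and broad (grey) member in all CD8 T cell-like cells, in cycling cells only and without the Ccl1-led cluster; bars are medians and dotted lines mark 0.5 and -0.5. The members lie mostly above 0.5 over all cells and around 0 in the other groups of cells.

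In cDC1-like cells a small group of late mitotic genes was lower in KO. Of 40 members, 0 were higher past the fold, beside 10.1% of all genes, and 8 were lower, all of them G2/M members, beside 7.11% of all genes. The median log2 ratio of the members was -0.22, beside 0.02 over all genes. Ube2c was at 13.8 CPM in KO (10.9 to 17.3), against 45.4 CPM in WT (37.7 to 54.1), a log2 ratio of -1.71 (-2.14 to -1.29). Cdc20 was at 3.78 CPM in KO, against 11.8 CPM in WT, Ccnb1 at 3.60 CPM in KO, against 11.1 CPM in WT, Cenpf at 11.3 CPM in KO, against 26.2 CPM in WT, and Ccnb2 at 12.6 CPM in KO, against 27.3 CPM in WT. These 5 passed a log2 ratio of -1, which 1.61% of all genes did on that side. Birc5, survivin of the chromosomal passenger complex, and Cdk1 had log2 ratios of -0.73 and -0.57, and Plk1, polo-like kinase, -0.53 (-1.43 to 0.40) from few UMIs.

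Other members differed less. Pcna was at 132 CPM in KO, against 128 CPM in WT, Mcm3 at 80.7 CPM in KO, against 78.9 CPM in WT, Mki67 at 99.2 CPM in KO, against 109 CPM in WT, and Top2a at 96.9 CPM in KO, against 97.4 CPM in WT. The summed S members were at 784 CPM in KO, against 827 CPM in WT, and the summed G2/M members at 493 CPM in KO, against 651 CPM in WT, a log2 ratio of -0.40 (-0.49 to -0.32). The 4 broad members summed to a log2 ratio of -0.18 (-0.24 to -0.13). With cycling cells left out, 10 of 28 members were lower past the fold, beside 9.12% of all genes, and 1 was higher, beside 10.1% of all genes, and the summed S members had a log2 ratio of -0.32 (-0.44 to -0.20). Among cycling cDC1-like cells, 62 in KO and 37 in WT, the summed S members were higher in KO, at 2013 CPM in KO, against 1688 CPM in WT (0.25; 0.16 to 0.35), and the summed G2/M members lower, at 1745 CPM in KO, against 2020 CPM in WT (-0.21; -0.31 to -0.12). Ube2c was at 41.9 CPM in KO, against 150 CPM in WT (-1.84; -2.33 to -1.37), and Cdc20 at 12.0 CPM in KO, against 39.6 CPM in WT. The share of these cycling cells with any Ube2c UMI was nearly equal, at 37.1% in KO and 35.1% in WT. For Cdc20 that share was 19.4% in KO and 24.3% in WT, and for Ccnb1 16.1% and 24.3%. Uhrf1 was at 112 CPM in KO, against 60.7 CPM in WT (0.89; 0.40 to 1.40). In those cells 3 members were higher past the fold (Aurka, Rrm1 and Uhrf1), beside 20.4% of all genes. The 7 lower ones were Birc5, Ccnb1, Ccnb2, Cdc20, Cenpa, Cenpf and Ube2c, beside 7.67% of all genes. Few cells make up these sums, which the intervals over UMIs do not cover.

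In cDC2-like cells 0 of 40 members were higher past the fold, beside 7.81% of all genes, and 8 were lower (Birc5, Ccna2, Ccnb1, Ccnb2, Ccne2, Cdc20, Cenpe and Stmn1), beside 10.3% of all genes. The members' median log2 ratio was -0.31, beside -0.03 over all genes. Cenpe, the kinetochore motor, was at 7.39 CPM in KO, against 12.9 CPM in WT (-0.81; -1.22 to -0.39), and Birc5 at 10.2 CPM in KO, against 16.6 CPM in WT (-0.70; -1.06 to -0.34). Mki67 was level, at 43.4 CPM in KO, against 43.3 CPM in WT. A pair of clusters made up the lineage and differed in sign. The cluster led by Cd209a, Mgl2 and Clec10a held 85.4% of cDC2-like cells in KO and 80.9% in WT, and its summed members had a log2 ratio of -0.25 (-0.29 to -0.22). In the cluster led by Cd209d, with 147 KO and 119 WT cells, it was 0.24 (0.14 to 0.33), and for the S members alone 0.80 (0.58 to 1.02). The difference between the clusters was not tested. Of the further lists, 9 of 23 S genes and 11 of 25 G2/M genes were lower past the fold.

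In migratory DC-like cells 13 of 36 members were lower, beside 13.9% of all genes, and 1 was higher, beside 9.43% of all genes. The lower ones were 7 S members (Dut, Hells, Mcm5, Mcm6, Rrm2, Tk1 and Tyms), 4 G2/M members (Aurkb, Birc5, Bub1 and Top2a), Stmn1 and Hmgb2. Stmn1 was at 22.4 CPM in KO, against 81.2 CPM in WT, a log2 ratio of -1.86 (-2.15 to -1.57), and Dut at 12.8 CPM in KO, against 33.3 CPM in WT (-1.38; -1.79 to -0.97). The higher member was Ccnb1, from 15 UMIs in KO and 5 in WT. T cell marker transcripts, given above for these cells, were also lower in KO than in WT, and their part in these ratios was not tested.

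In macrophage-like cells 2 of 38 members were higher past the fold (Nusap1 and Uhrf1), beside 9.63% of all genes, and 8 were lower (Ccnb1, Ccnb2, Cdc20, Cenpe, Cenpf, Kif11, Mcm4 and Tpx2), beside 11.9% of all genes. Pcna was at 84.1 CPM in KO, against 62.1 CPM in WT, a log2 ratio of 0.44 (0.24 to 0.64). Mki67 was at 31.2 CPM in KO, against 28.5 CPM in WT. Cenpf was at 1.69 CPM in KO, against 4.17 CPM in WT (-1.31; -2.39 to -0.25), from 15 and 19 UMIs, and the other lower mitotic members were as sparse. The summed S members were at 176 CPM in KO, against 161 CPM in WT, and the summed G2/M members at 153 CPM in KO, against 185 CPM in WT (-0.27; -0.40 to -0.15).

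The macrophage-like cells were of 2 kinds, and the G2/M difference was not found within either. A cluster led by Arg1, Cxcl1 and Cxcl2 held 68.2% of macrophage-like cells in KO and 49.2% in WT, at median depths of 10383 UMIs in KO and 8951 UMIs in WT. Its cycling share was 4.40% in KO (31 of 705) and 2.58% in WT (9 of 349), a log2 ratio of 0.77 (-0.34 to 2.03). A cluster led by Ccl8 and the complement genes C1qa, C1qb and C1qc had 2.44% in KO (8 of 328) and 4.43% in WT (16 of 361), a log2 ratio of -0.86 (-2.29 to 0.45). The difference between these ratios was not tested. The summed G2/M members had a log2 ratio of 0.00 in each cluster, and the summed S members 0.32 (0.14 to 0.49) in the Arg1-led and 0.44 (0.24 to 0.63) in the Ccl8-led cluster. The T cell markers summed to 33.6 CPM in KO, against 535 CPM in WT in cycling macrophage-like cells, and to 44.1 CPM in KO, against 227 CPM in WT in non-cycling ones, and their part was not tested.

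In CD4 T cell-like cells S members were more often on the higher side and G2/M members on the lower. In CD4 T cell-like cells 7 of 40 members were higher past the fold, 5 of them S members (Ccne2, Gins2, Mcm4, Rrm2 and Tk1) with Tpx2 and Tuba1b, beside 10.8% of all genes. The 8 lower ones were all G2/M members (Aurka, Birc5, Ccnb1, Ccnb2, Cdc20, Cenpe, Kif11 and Ube2c), beside 9.68% of all genes. Ccnb2 was at 11 CPM in KO, against 19.4 CPM in WT (-0.82; -1.69 to -0.02) and Ube2c at 24.0 CPM in KO, against 38.2 CPM in WT. Tuba1b was at 165 CPM in KO, against 90.2 CPM in WT, a log2 ratio of 0.87 (0.62 to 1.12). Within cycling cells, 14 in KO and 50 in WT, the G2/M sum went the other way, at 5157 CPM in KO, against 4537 CPM in WT (0.18; 0.05 to 0.32), and the S sum was at 2041 CPM in KO, against 1424 CPM in WT (0.52; 0.30 to 0.74). Cells were also called by 3 UMIs of the 5 S members in place of Mki67, Top2a and Birc5. The cycling share of CD4 T cell-like cells was then 4.17% in KO (14 of 336) and 3.40% in WT (22 of 647). That log2 ratio of 0.29 (-0.79 to 1.32) had the other sign, with an interval that spans 0.

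In NK cell-like cells 6 of 36 members were higher past the fold, all S members (Gins2, Hells, Mcm5, Pcna, Rrm2 and Tyms), beside 8.72% of all genes. The 3 lower ones were the G2/M members Ccna2, Nusap1 and Plk1, beside 11.3% of all genes, a share of members no larger than that background. Rrm2 was at 31.6 CPM in KO, against 9.57 CPM in WT (1.73; 0.88 to 2.65) and Pcna at 116 CPM in KO, against 68.2 CPM in WT (0.77; 0.43 to 1.12). The summed S members were at 621 CPM in KO, against 480 CPM in WT, a log2 ratio of 0.37 (0.24 to 0.51), and the summed G2/M members at 532 CPM in KO, against 666 CPM in WT, a log2 ratio of -0.32 (-0.45 to -0.20). Of the 10 cycling NK cell-like cells in KO, 30% were among the highest doublet scores, against 5.88% of the 17 in WT.

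Treg-like cells, with 121 cells in KO and 84 in WT, had summed S members at 1472 CPM in KO, against 717 CPM in WT, a log2 ratio of 1.04 (0.86 to 1.21). Their summed G2/M members were closer, at 1982 CPM in KO, against 1756 CPM in WT, a log2 ratio of 0.17. Rrm2 was at 124 CPM in KO, against 28.7 CPM in WT, and Uhrf1 at 54.1 CPM in KO, against 11 CPM in WT, while Mki67 was at 379 CPM in KO, against 333 CPM in WT. Only 19 KO and 12 WT cells were cycling there, so a few cells can set these values. A further cluster had Foxp3, Ctla4 and Ikzf2, but also the B cell gene Ms4a1, among its leading genes. It stayed unnamed for its doublet score and is not in these values. It held 53 KO and 241 WT cells, of which 12 in KO and 40 in WT were cycling.

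B cell-like and monocyte-like cells had too few transcripts for much contrast. In B cell-like cells 4 of 27 members were higher past the fold (Gins2, Nusap1, Stmn1 and Top2a), beside 9.51% of all genes, and 4 were lower (Cenpe, Cenpf, Mcm2 and Uhrf1), beside 18.6% of all genes. In monocyte-like cells 1 of 16 was higher (Mcm4), beside 12.7% of all genes, and 3 were lower (Hells, Mcm5 and Mcm6), beside 10.8% of all genes. Over all immune cells together, 0 of 40 members were higher, beside 14.3% of all genes, and 6 were lower (Cdc20, Cenpe, Cenpf, Hmgb2, Plk1 and Ube2c), beside 23.7% of all genes. That sum mixes lineages in unequal shares. Hmgb2 was at 381 CPM in KO, against 602 CPM in WT over all immune cells, and was level over all CD8 T cell-like cells. Without their Ccl1-led cluster it was lower, at 1008 CPM in KO, against 1210 CPM in WT (-0.26; -0.34 to -0.19). In migratory DC-like cells it was lower past the fold. The part of the lineage mix in its ratio was not tested.

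**Figure D4:**
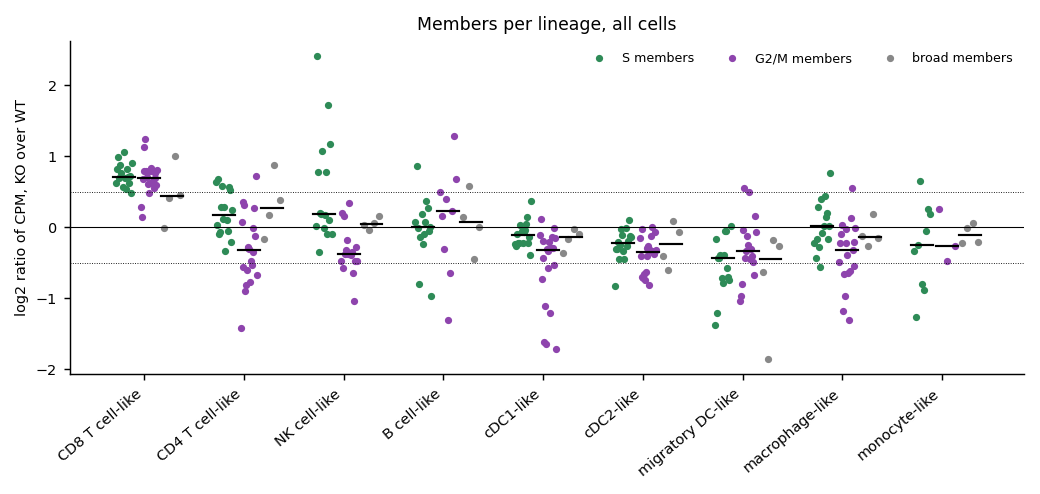
Log2 ratio of CPM, KO over WT, of each member with at least 20 UMIs in 9 lineages; S members in green, G2/M members in purple, broad members in grey, bars are medians and dotted lines mark 0.5 and -0.5. CD8 T cell-like members lie above 0.5 for the most part, G2/M members lie below S members in CD4 T cell-like and NK cell-like cells, and a few G2/M members of cDC1-like cells lie below -1.

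The balance of S against G2/M transcripts was read within cycling cells, as the S share of all S and G2/M member UMIs. Over all immune cycling cells it was 45.1% in KO (44.5 to 45.7%) and 38.2% in WT (37.7 to 38.8%). It was higher in KO in CD8 T cell-like cells, at 43.8% in KO and 39.3% in WT, in NK cell-like cells, at 41.6% and 27.6%, and in macrophage-like cells, at 38.8% and 22%. In cDC1-like cells it was 53.6% in KO and 45.5% in WT, and in cDC2-like cells nearly equal, at 51.0% in KO and 50.4% in WT. Migratory DC-like cells went the other way, at 30.2% in KO and 40.8% in WT. These are shares of UMIs, and the intervals do not cover the spread between cells.

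Mki67, Top2a and Birc5 are late genes, and in several lineages the difference in that balance changed with the genes that picked the cycling cells. The cause of these changes was not tested. Among cells picked by 5 S genes the difference of KO minus WT was -0.264 percentage points in CD8 T cell-like cells, against 4.46 points among cells picked by the late genes. In macrophage-like cells it was -2.11 points, against 16.8 points, and in cDC1-like cells 3.26 points, against 8.06 points. In NK cell-like cells both ways of picking gave 14.0 points, on few cells. The late genes picked 10 KO and 17 WT cells, the S genes 10 KO and 6 WT cells, and 6 KO and 5 WT cells met both calls. Cell by cell, with the 3 late genes left out, 51.5% of cycling CD8 T cell-like cells in KO (35 of 68; 39.0 to 63.8%) and 36.7% in WT (76 of 207; 30.1 to 43.7%) had 75% or more of their phase UMIs from S members. In cDC1-like cells such S-dominated cells were 46.8% in KO (29 of 62) and 54.1% in WT (20 of 37), opposite to the UMI share.

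**Figure D5:**
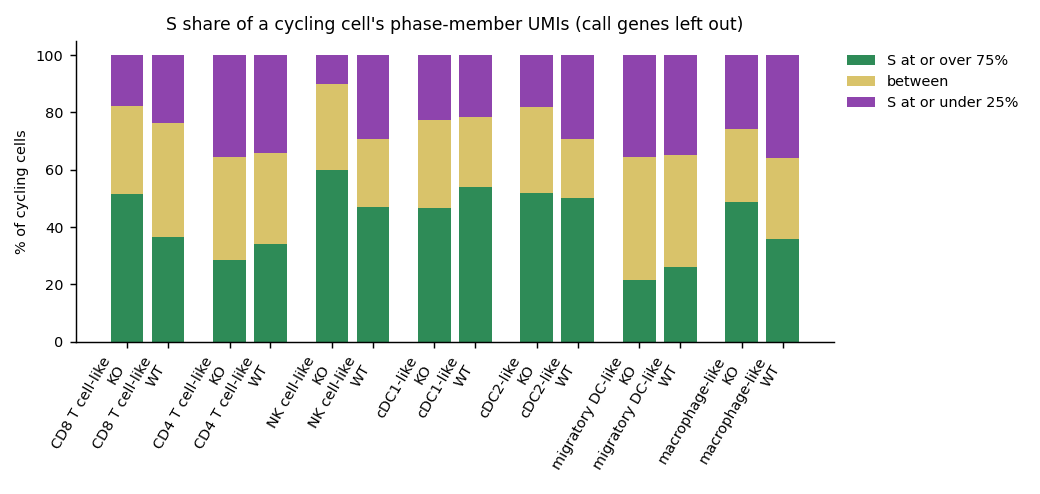
Cycling cells of each lineage and library (KO left of WT in each pair) split by the S share of their S and G2/M member UMIs, with Mki67, Top2a and Birc5 left out: at or over 75% (green), between (yellow), at or under 25% (purple). In CD8 T cell-like cells 51.5% of KO and 36.7% of WT cells are in the green class; the NK cell-like bars rest on 10 KO and 17 WT cells.

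Cells called by the 5 S genes gave a further view of entry into the cycle. In CD8 T cell-like cells 13.4% met that call in KO (52 of 387; 10.2 to 17.2%) and 9.02% in WT (148 of 1640; 7.68 to 10.5%), a log2 ratio of 0.57 (0.09 to 1.04), and 4.53% in KO and 2.23% in WT after thinning to 2000 UMIs. In cDC1-like cells it was 17.2% in KO (63 of 367) and 20.8% in WT (44 of 212), and in macrophage-like cells 1.06% in KO (11 of 1033) and 0.986% in WT (7 of 710). In monocyte-like cells 0 cells met it in either library. The threshold of 3 UMIs left many cells near it: among CD8 T cell-like cells 19 in KO and 97 in WT held 2 UMIs of the call genes, 14 in KO and 46 in WT held 3, and 35 in KO and 96 in WT held 10 or more. Among macrophage-like cells 30 in KO and 17 in WT held 2 UMIs, and 11 in KO and 2 in WT held 10 or more.

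The genes that gate entry into the cycle differed among lineages. Ccnd1, cyclin D1, was high in dendritic cells, at 267 CPM in KO, against 280 CPM in WT cDC1-like cells, and low in CD8 T cell-like cells, at 1.99 CPM in KO, against 3.04 CPM in WT. Ccnd2, cyclin D2, was at 242 CPM in KO, against 168 CPM in WT CD8 T cell-like cells, at 196 CPM in KO, against 113 CPM in WT cDC1-like cells, and at 83.2 CPM in KO, against 208 CPM in WT B cell-like cells, where the log2 ratio was -1.32 (-1.62 to -1.03). The B cell-like cells were of 2 clusters in unequal shares. The cluster led by Ms4a1 held 16.5% of them in KO and 48.8% in WT, at median depths of 1037 UMIs in KO and 1179 UMIs in WT, and Ccnd2 was there at 113 CPM in KO, from 17 UMIs, against 334 CPM in WT. In the cluster led by Ighd the log2 ratio of Ccnd2 was -0.28 (-0.64 to 0.07). Cdk6, which pairs with D cyclins, was at 119 CPM in KO, against 42.2 CPM in WT CD8 T cell-like cells, a log2 ratio of 1.49 (1.28 to 1.70). In CD8 T cell-like cells 2 of 7 D cyclin and kinase genes were higher past the fold, beside 16.2% of all genes, and 1 lower, beside 11% of all genes. Without the Ccl1-led cluster the log2 ratio was 1.10 (0.80 to 1.38) for Cdk6 and 0.72 (0.57 to 0.87) for Ccnd2.

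Inhibitors and transcription factors of the cycle were counted in CD8 T cell-like cells too, against the same background of 16.2% of all genes higher and 11% lower. Of 6 inhibitors 3 were higher past the fold, among them Cdkn1a (p21) at 30.9 CPM in KO, against 14.4 CPM in WT and Cdkn2a at 16.3 CPM in KO, against 3.44 CPM in WT, and 1 was lower, Cdkn1b (p27), at 160 CPM in KO, against 234 CPM in WT. Cdkn1a was far higher in macrophage-like cells, at 1190 CPM in KO, against 935 CPM in WT, where few cells cycled. Of 9 Rb and E2F genes 1 was higher and 0 lower in CD8 T cell-like cells, and of 4 genes of G2/M transcription 2 were higher, Mybl2 (B-Myb) at 7.64 CPM in KO, against 3.65 CPM in WT and Lin54 at 31.5 CPM in KO, against 18.1 CPM in WT. Foxm1 was level, at 3.98 CPM in KO, against 4.05 CPM in WT. Of 2 Myc genes measured there, Myc was higher, at 55.1 CPM in KO, against 26.4 CPM in WT (1.06; 0.77 to 1.35). Without the Ccl1-led cluster 0 of 4 inhibitors with enough UMIs passed the fold in either direction. The log2 ratio was then 0.34 (-0.31 to 0.94) for Cdkn1a, -0.18 (-0.34 to -0.02) for Cdkn1b, 0.33 (-0.25 to 0.87) for Lin54 and 0.96 (0.55 to 1.35) for Myc. Cdkn2a was left with 8 UMIs in KO and 10 in WT, under the 20 needed to be counted, and Mybl2 with 3 in KO and 27 in WT. These came from 1727631 UMIs in KO and 9039620 UMIs in WT. Per UMI of these cells Cdkn2a was thus still higher in KO, on few counts. In cDC1-like cells Mycl, the Myc family member of dendritic cells, was at 53.9 CPM in KO, against 42.4 CPM in WT.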

How the data were processed

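Count matrices (genes by cell barcodes, raw UMI counts) were deposited by the authors for 1 KO and 1 WT library. Per the submitters' processing notes the tools were Cell Ranger 3.1.0 on GRCm38 after bcl2fastq 2.20, with Seurat 4.0.1, while the matrix headers name Cell Ranger 4.0.0; filters on barcodes other than a minimum of 500 UMIs, seen in the files, are not given in the sources used here. Cells with fewer than 200 genes or more than 15% mitochondrial UMIs were left out here. Scrublet, as run in scanpy 1.11.5 (Python 3.11.15), marked 1 KO and 0 WT cells, so it did not work as a filter of single cells; instead, clusters whose mean Scrublet score reached 0.15 got no lineage name, doublets elsewhere stayed in, and an alternative left out the cells whose doublet scores were in the top 6%. Leiden clusters (resolution 1) were made on 2000 variable genes. Left out of these were 640 genes: listed cell cycle genes, histone genes, and 409 genes whose correlation with the mean S and G2/M member level passed 0.15. Clusters were named "-like" from marker genes, and cells in unnamed clusters count among all immune cells. UMIs were summed per lineage and library and given as CPM. Intervals are exact binomial (Clopper-Pearson) for shares, exact Poisson for CPM and exact conditional binomial for log2 ratios, at 95%, and cover counting error only. With 1 library per genotype no p-value was computed. TMM factors (edgeR 4.0.16, R 4.3.3) were an alternative scaling, which moved all log2 ratios by 0.13 over all immune cells and by under 0.1 in each lineage. Members past the fold were counted on the plain log2 ratio of CPM, with no all-gene median subtracted. Where an all-gene median is printed, it stands beside the members' median for comparison only. The rule named all 40 members and, per lineage with at least 200 cells in each library, those past the fold; Treg-like, gamma-delta T cell-like and plasmacytoid DC-like values and the genes named from other lists were chosen after their values were seen. Members and gene lists were chosen with earlier results of these data known. The intervals of log2 ratios of levels and of single shares were run on simulated sums and shares drawn with counting error only, a setting in which such intervals hold by design. In that run, set to the depth of the CD8 T cell-like sums, 11.6% of unchanged genes passed the fold. Promoters come from RefSeq (GRCm38.p6); no promoter was used for Ccne2, Aurkb, Gins2, Tpx2, Ccna2, Stmn1 and Mcm4.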

Additional observations from a re-analysis of the deposited data

How the results depend on the processing

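No paired analysis was possible because each genotype has 1 library, and for the same reason no replicate was left out. Of 377 recomputed values, 252 stayed within the limits set for them, 122 moved and 3 were counted as reversed, those said below to have turned round. Other values also changed sign without being counted as reversed, so 3 is not the number of sign changes. Among them, without the Ccl1-led cluster, were 2 log2 ratios of CD8 T cell-like cells. The cycling share went from 0.48 to -0.30 and the summed members from 0.48 to -0.12. Limits are the single library per genotype, which cluster a cell falls in, and depth (median 8026 UMIs in KO and 4398.5 UMIs in WT cells). Alternatives added after seeing the data were those without shared barcodes, without the Ccl1-led cluster, with cells weighted alike, with cells of at least 2000 UMIs, single B cell-like clusters, and the member counts in cycling or non-cycling cells. The cause of each change below was not tested unless the alternative's own construction shows it.

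Log2 ratios (KO over WT) of the cycling share moved as follows. Over all immune cells the ratio was -0.62, -0.58 and -0.51 after thinning to 1000, 2000 and 4000 UMIs, -0.57 with the threshold set per 10000 UMIs, and 0.23 with S genes. In CD8 T cell-like cells it was 0.0011 at 1 or more UMIs, 0.058 per 10000 UMIs, -0.30 at resolution 0.5 and -0.30 without the Ccl1-led cluster. With S genes it was 0.92 in NK cell-like cells and turned round to 0.29 in CD4 T cell-like cells, both with intervals that span 0. It was -0.91 per 10000 UMIs in macrophage-like cells, 1.2 in cDC1-like and -1.01 in cDC2-like cells thinned to 1000 UMIs, and -1.25 in migratory DC-like cells thinned to 4000 UMIs.

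The S share (KO minus WT, percentage points) over all cells of the lineage was 0.836 in CD8 T cell-like, 6.98 in macrophage-like, 5.45 in cDC1-like and -1.85 in migratory DC-like cells. Among cells picked by S genes it turned round to -0.264 in CD8 T cell-like and to -2.11 in macrophage-like cells, and was 3.26 in cDC1-like cells. Without Mki67, Top2a and Birc5 it was 23.9 in macrophage-like, 11.3 in cDC1-like and -17.1 in migratory DC-like cells. The further lists gave 2.22 in CD8 T cell-like and -4.83 in migratory DC-like cells, and leaving out the highest doublet scores gave 6.56 in cDC2-like cells.

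The log2 ratio of the summed 40 members under TMM was -0.086 over all immune cells, 0.39 in CD8 T cell-like, 0.017 in macrophage-like, -0.12 in cDC2-like and -0.30 in migratory DC-like cells. With cycling cells left out it was -0.19, -0.040, -0.029 and -0.26 in all immune, CD8 T cell-like, cDC2-like and migratory DC-like cells. In cycling cells only it was -0.19 (all immune), -0.079 (CD8 T cell-like), -0.31 (macrophage-like), -0.038 (cDC1-like), -0.32 (cDC2-like) and -0.68 (migratory DC-like). With the highest doublet scores left out it was -0.31 (all immune), -0.36 (cDC2-like) and -0.51 (migratory DC-like), and without shared barcodes -0.15 in cDC2-like cells. With cells weighted alike it was -0.26 (all immune), 0.054 (CD8 T cell-like), -0.31 (macrophage-like), -0.13 (cDC2-like) and -0.26 (migratory DC-like), and without the Ccl1-led cluster -0.12 in CD8 T cell-like cells. Members higher past the fold in CD8 T cell-like cells, 33 as reported, numbered 4 at a log2 ratio of 1, 3 in cycling cells, 10 with these left out and 0 without the Ccl1-led cluster; lower ones, 0 as reported, numbered 1, 6 and 5 in the last 3 of these. Among results for other lineages or lists, 7 S shares, 52 counts and 6 summed levels moved. A further 15 alternatives gave no value, 11 because a library held 0 cycling B cell-like, monocyte-like or macrophage-like cells and 4 because another naming left fewer than 200 cells.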

Other observations

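The melanoma-like cells that passed the CD45+ sort are not a sample of the tumour itself. Of them 28.1% were cycling in KO (25 of 89; 19.1 to 38.6%) and 30.6% in WT (37 of 121; 22.5 to 39.6%), with median depths of 153083 UMIs in KO and 96618 UMIs in WT cycling cells, against 655.5 UMIs in KO and 688.5 UMIs in WT non-cycling cells. Cells that deep reach 3 UMIs far more readily than shallow ones, so the call mostly parts deep from shallow barcodes here. The cycling barcodes held 37885 of the 38669 member UMIs in KO and 29002 of 29752 in WT, so the levels below are mostly theirs. The summed S members were at 1673 CPM in KO, against 1612 CPM in WT, and the summed G2/M members at 4968 CPM in KO, against 4122 CPM in WT. Mki67 was at 542 CPM in KO, against 326 CPM in WT (0.73; 0.63 to 0.84), Cenpf at 574 CPM in KO, against 375 CPM in WT (0.61; 0.51 to 0.71), and Ube2c, lower in KO as it was in cDC1-like cells, at 355 CPM in KO, against 424 CPM in WT. Ccnb1 was at 150 CPM in KO, against 136 CPM in WT melanoma-like cells.

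Plasmacytoid DC-like cells, with 155 cells in KO and 298 in WT, had summed S members at 272 CPM in KO, against 203 CPM in WT, a log2 ratio of 0.42, and summed G2/M members at 189 CPM in KO, against 152 CPM in WT. Of the 418 S UMIs in KO, 116 lay in 3 cycling cells. In non-cycling cells the S sum had a log2 ratio of 0.07 (-0.16 to 0.29) and the G2/M sum -0.27 (-0.58 to 0.04). Cells in clusters without a name were cycling at 9.06% in KO (26 of 287) and 9.33% in WT (128 of 1372).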
